A study of Mus musculus with 16 samples.

Results

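RAW 264.7 cells in which Cebpb had been targeted by siRNA were compared with and without isoproterenol, in 4 libraries against 4. These 8 libraries were all those of the series' 16 that carried the Cebpb siRNA, and they came from 2 experiments (RAW14 and RAW15) with 2 replicates of each condition in each. RAW 264.7 is a mouse macrophage-like line, and isoproterenol is a synthetic agonist of β-adrenergic receptors. In every group the cells received 25 nM of siRNA with a lipid reagent, and isoproterenol was added, where it was used, after 24 h of transfection. The untreated cells here therefore carried the same Cebpb siRNA, a single product, as the treated cells. The other 8 libraries carried a control siRNA, 4 with isoproterenol and 4 without, and are used below only to ask where the response differed. The sources used here do not state the dose of isoproterenol or how long the cells were exposed. The submitters describe 4 biological replicates per group, but no label says how the cultures of an experiment were separated, so the p-values measure the spread between these libraries.

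β-adrenergic receptors couple through a stimulatory G protein to adenylyl cyclase, which makes cyclic AMP. Cyclic AMP activates protein kinase A, and the kinase phosphorylates the transcription factor CREB, which binds the sequence called the cAMP response element and induces early genes such as those of the Fos and Nr4a families. In macrophages this pathway is known for restraining part of the inflammatory output while raising other genes. Cebpb encodes C/EBPβ, a transcription factor of the leucine zipper class that is itself a known target of cyclic AMP signalling and takes part in the expression of many myeloid genes.

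The 8 libraries held between 9.42 and 25.17 M reads, with 61.65 to 64.53% of reads assigned to genes. Levels are given as reads per 1000000 reads of all kinds (RPM), and a value of 1 RPM or less is listed as 0 in the deposited values. Cebpb, the targeted gene, was read at 11.8 and 25.0 RPM in experiment 1 and 21.8 and 33.1 RPM in experiment 2 without isoproterenol, and at 28.5, 27.6, 25.8 and 23.9 RPM with it. All 8 values lay below those of the 8 control siRNA libraries, which ran from 61.3 to 100.6 RPM. The isoproterenol effect on Cebpb itself was 0.25 on the log2 scale with SE 0.22, with limma adjusted p = 0.63, and its sign differed between the experiments. Of the 12 macrophage markers all were above the floor in all 8 libraries, Csf1r at 223 to 356 RPM and Lyz2 at 587 to 746 RPM, but Adgre1, which encodes F4/80, was low at 4.49 to 6.66 RPM. No fibroblast marker and no epithelial marker was above the floor. The first principal component separated the 2 experiments and held 33.9% of the variance. The library of Cebpb siRNA without isoproterenol, experiment 2, replicate 2, was the shallowest and stood apart on the second component. Summed mitochondrial mRNA was higher with isoproterenol, at 5047 ± 113 RPM without and 6283 ± 295 RPM with it (SD, n = 4 each), and the 2 groups did not overlap (exact two-sided permutation p = 0.0286, the smallest that 4 against 4 allows, adjusted p = 0.124 over 13 library measures). Its part in the results below was not tested.

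Isoproterenol raised 184 and lowered 90 of 10760 tested genes in Cebpb siRNA cells. These counts are 1.71% and 0.836% of the genes tested, and the call was a Benjamini-Hochberg adjusted p below 0.05 in limma with a term for the experiment. Of the raised genes 32 changed by at least 2-fold, and of the lowered genes 4 did. The median log2 fold change was 0.56 among the raised genes and -0.47 among the lowered genes. In 145 of the 184 and 59 of the 90 every library of one condition lay beyond every library of the other, which held for 756 of all tested genes. All 274 called genes moved in the same direction in both experiments, but the calls were made from these same experiments, so this is not a replication. Over all tested genes the log2 fold changes of the 2 experiments had a Pearson correlation of 0.32. At an unadjusted p below 0.05 there were 1666 genes. A test of whether the isoproterenol effect differed between the experiments called 0 genes with limma, and 749 at an unadjusted p below 0.05. On the values as deposited, without scaling between libraries, 241 genes were higher and 48 lower, a share of 83.4% higher against 67.2% with the scaling. Without the shallowest library the counts were 336 higher and 231 lower, while each other library left out gave fewer calls, down to 100 higher and 35 lower.

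**Figure D1:**
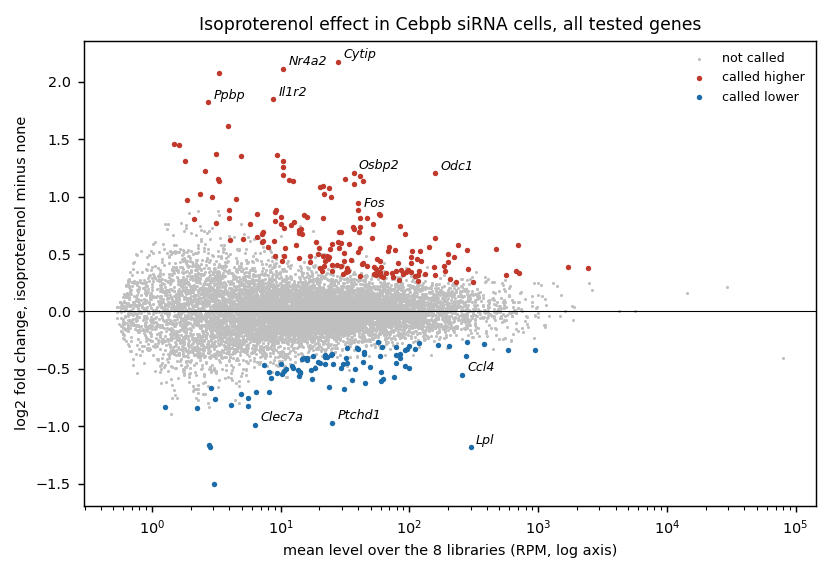
Each point is 1 of the 10760 tested genes, with its mean level over the 8 Cebpb siRNA libraries (RPM, log axis) and its log2 fold change by isoproterenol; red and blue points are the 184 genes called higher and the 90 called lower. Cytip, Nr4a2 and Ctla2a lie above 2 on the log2 scale, and Lpl is the only called decrease of 2-fold or more with a mean above 10 RPM.

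The genes that rose most had varied roles, and Cytip and Nr4a2 had the largest increases. With the mean level required to be 10 RPM or more, the 14 largest increases ran from 1.09 to 2.17 on the log2 scale. All 14 were called again whichever of the 8 libraries was left out. Cytip, a scaffold protein that binds cytohesin and tempers leukocyte adhesion, rose most. It was read at 7.53 and 11.1 RPM in experiment 1 and 10.5 and 10.4 RPM in experiment 2 without isoproterenol, and at 41.1, 45.4, 49.2 and 47.3 RPM with it. The groups lay far apart in both experiments. The increase was 4.51-fold (log2 fold change 2.17, SE 0.10, limma adjusted p = 6.09e-08). On GRCm38 the annotation puts Cytip at chr2:58129137-58195532 on the minus strand, Nr4a2 at chr2:57106830-57124003 on the minus strand, Osbp2 at chr11:3703731-3863903 on the minus strand and Lpl at chr8:68880491-68907448 on the plus strand.

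Nr4a2, an orphan nuclear receptor of the early response class, was read at 3.53, 3.54, 3.30 and 4.99 RPM without isoproterenol and at 16.7, 16.8, 17.1 and 17.3 RPM with it. The 4 treated libraries were nearly equal, and the increase was 4.33-fold (log2 fold change 2.11, SE 0.14, limma adjusted p = 2.27e-06). Its relative Nr4a1 was listed at 0 in 3 untreated libraries and at 1.06 RPM in the other, against 3.79, 2.98, 2.76 and 2.40 RPM with isoproterenol (limma adjusted p = 0.000463). Nr4a1 lies close to the floor, so its fitted change of 1.45 is not a measure of size. It passed the filter of 4 libraries above the floor only through the treated ones, and 3 untreated values were set to the floor. Its call, also within the list below, is therefore no independent support. Of the list of 43 cAMP and CREB response genes, 34 could be tested. Of these 10 rose and 0 fell, and 24 did not pass, with a median of 0.22 against -0.003 over all tested genes. The 10 were Nr4a1, Nr4a2, Fos, Fosl2, Crem, Klf4, Pde3b, Pde4b, Ier3 and Odc1. In control siRNA cells 10 members of the list rose and 1 fell, with a median of 0.14. Over all tested genes 1.71% were called higher here and 2.33% in control siRNA cells. The list was written with earlier results of these data known.

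Fos and Fosl2 encode subunits of AP-1, whose element was searched for in the form TGANTCA, with any base in the middle. Fos was read at 21.4, 24.4, 31.5 and 33.9 RPM without isoproterenol and at 48.5, 47.6, 56.8 and 56.0 RPM with it. Every treated library was above every untreated one, and the log2 fold change was 0.88 with SE 0.08 (limma adjusted p = 4.49e-05). Fosl2 went from 30.2 ± 2.82 to 50.7 ± 5.13 RPM (SD, n = 4 each; limma adjusted p = 8.34e-05). Crem, whose products include an inducible repressor that closes the cyclic AMP response, rose 2.12-fold from 12.6 ± 1.73 to 27.6 ± 2.38 RPM. Klf4, a zinc finger factor of macrophage activation, rose 1.71-fold. The phosphodiesterases Pde3b and Pde4b, which degrade cyclic AMP, rose by 1.26 and 0.72 on the log2 scale. Pde3b was read at 4.89 to 6.64 RPM without and at 13.5 to 17.0 RPM with isoproterenol. Early genes of the same list that did not pass included Egr1 with a log2 fold change of -0.20, Jun with 0.22, Junb with 0.13, Dusp1 with 0.36 and Sik1 with 0.54. Without the shallowest library 14 members of the list were called higher, and in experiment 2 alone 4 were.

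Of 35 tested genes of the β-adrenergic pathway 1 rose and 0 fell, with a median of 0.02, a share near the 1.71% and 0.836% over all tested genes. The 1 was Adcy7, an adenylyl cyclase common in blood cells, which went from 73.6 ± 6.18 to 92.1 ± 1.89 RPM (SD, n = 4 each; log2 fold change 0.28, limma adjusted p = 0.032). That call was lost when any library except the shallowest was left out. Adrb1 and Adrb3 did not reach the floor in enough libraries to be tested.

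Promoter sequences of 5 raised genes are shown because they hold matches to the motifs searched for the factors named above, CREB and AP-1. Each runs from 250 bases before to 50 bases after a start annotated by RefSeq on GRCm38.p6 and is written 5′ to 3′ on the gene's strand. Capitals mark the cAMP response element core TGACG and a loose form of the AP-1 element, TGANTCA with any base as N, on either strand. TGACG on the opposite strand reads CGTCA. The windows are chr2:57123954-57124253 on the minus strand for Nr4a2, chr15:101266596-101266895 on the plus strand for Nr4a1, chr10:44458699-44458998 on the minus strand for Prdm1, chr3:93520246-93520545 on the plus strand for S100a11 and chr11:46454681-46454980 on the plus strand for Havcr2.
Nr4a2: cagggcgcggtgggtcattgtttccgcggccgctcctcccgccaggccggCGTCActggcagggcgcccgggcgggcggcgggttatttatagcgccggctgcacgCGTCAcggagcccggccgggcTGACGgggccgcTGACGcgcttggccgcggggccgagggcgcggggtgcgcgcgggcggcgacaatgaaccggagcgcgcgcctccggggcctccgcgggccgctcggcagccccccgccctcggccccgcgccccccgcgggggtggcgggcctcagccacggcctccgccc
Nr4a1: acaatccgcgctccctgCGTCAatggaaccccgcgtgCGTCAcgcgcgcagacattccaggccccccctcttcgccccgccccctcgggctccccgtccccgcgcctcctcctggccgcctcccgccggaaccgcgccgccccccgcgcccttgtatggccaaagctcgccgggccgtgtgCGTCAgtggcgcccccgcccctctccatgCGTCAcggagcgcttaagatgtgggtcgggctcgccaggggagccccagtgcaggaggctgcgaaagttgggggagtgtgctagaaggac
Prdm1: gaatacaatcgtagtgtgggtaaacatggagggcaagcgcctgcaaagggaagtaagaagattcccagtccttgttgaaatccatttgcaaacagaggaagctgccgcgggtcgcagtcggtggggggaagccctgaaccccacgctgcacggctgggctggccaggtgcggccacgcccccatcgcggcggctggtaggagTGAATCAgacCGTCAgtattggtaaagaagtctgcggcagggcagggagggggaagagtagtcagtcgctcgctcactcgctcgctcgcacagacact
S100a11: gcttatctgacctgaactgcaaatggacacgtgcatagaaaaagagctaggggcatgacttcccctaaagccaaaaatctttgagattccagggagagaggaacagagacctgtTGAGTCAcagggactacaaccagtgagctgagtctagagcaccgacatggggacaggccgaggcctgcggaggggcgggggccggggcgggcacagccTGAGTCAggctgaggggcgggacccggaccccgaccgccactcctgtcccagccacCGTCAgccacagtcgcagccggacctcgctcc
Havcr2: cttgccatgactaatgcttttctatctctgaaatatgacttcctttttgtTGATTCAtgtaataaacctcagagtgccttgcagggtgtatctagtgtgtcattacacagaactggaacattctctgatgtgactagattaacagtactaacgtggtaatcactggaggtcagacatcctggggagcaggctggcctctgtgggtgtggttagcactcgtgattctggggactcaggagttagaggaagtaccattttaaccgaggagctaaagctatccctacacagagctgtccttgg

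Nr4a2 and Nr4a1 each hold 4 copies of TGACG in these windows. A window with at least 4 copies was found for 58 of 8222 tested genes with a promoter window (0.705%), and among the 137 raised genes with one these were the 2 that had it. Over all raised genes, though, TGACG was not frequent: 40 of 137 held it (29.2%), against 37.6% of all 8222. The full element TGACGTCA was in 0 of 137 raised genes and in 4.0% of all. TGANTCA was in 21 of 137 raised genes (15.3%), among them Prdm1, S100a11 and Havcr2, against 6 of 71 lowered genes (8.5%) and 5.9% of all. TTGCGCAA, the C/EBP palindrome, was in 0 of 137 raised genes and 0.4% of all, and an NF-κB element in 48 of 137 and 2468 of 8222. TGANTCA allows any middle base, which is A in Prdm1, G in S100a11 and T in Havcr2. The shares were not split by that base. Raised genes had 1.32 windows each and all genes 1.27. A match describes letters in a window of 300 bases and does not show a site in use, and no test was made of these shares.

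Odc1, ornithine decarboxylase, which makes the first polyamine, was the highest expressed of the 14 largest increases. It was read at 69.2 and 70.5 RPM in experiment 1 and 128 and 106 RPM in experiment 2 without isoproterenol, and at 164, 184, 298 and 239 RPM with it. Experiment 2 was the higher one in both conditions, and within each experiment the treated libraries were the higher ones (log2 fold changes 1.28 and 1.13). The log2 fold change was 1.20 (SE 0.08, limma adjusted p = 2.56e-06). Smox, spermine oxidase, rose by 0.32 on the log2 scale, and the other 10 tested genes of polyamine metabolism did not pass. Over all tested genes 1.71% were called higher.

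Among surface and secreted proteins, Gpc1, a heparan sulfate proteoglycan, was read at 21.2 to 28.4 RPM without and at 46.8 to 62.5 RPM with isoproterenol. Tgfbi, an extracellular matrix protein, went from 24.0 to 28.8 RPM up to 56.1 to 64.7 RPM. Edil3, a secreted integrin ligand, went from 21.6 to 24.6 RPM up to 48.5 to 54.9 RPM. These 3 groups of libraries were well separated, and the log2 fold changes were 1.18, 1.14 and 1.11. Havcr2, the inhibitory receptor TIM-3, was read at 12.8, 13.1, 15.4 and 11.7 RPM without isoproterenol and at 25.8, 29.9, 27.8 and 33.5 RPM with it, 2.13-fold higher (limma adjusted p = 4.28e-05). Trem1, a receptor that amplifies myeloid activation, rose 2.11-fold from 14.9 ± 1.28 to 32.7 ± 3.96 RPM. Cd93, a receptor of phagocytic cells, rose 1.67-fold.

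The other large increases were in intracellular proteins. Prdm1 encodes the transcriptional repressor BLIMP-1. It was read at 4.42, 6.14, 6.55 and 5.94 RPM without isoproterenol and at 16.9, 14.6, 19.1 and 9.73 RPM with it, so that the treated libraries varied more than the untreated ones (log2 fold change 1.31, SE 0.19, limma adjusted p = 0.0019). S100a11, a calcium-binding protein, rose from 16.6 to 24.1 RPM up to 39.1 to 50.7 RPM. Eno3, the muscle form of enolase, Dmpk, a kinase best known from muscle, and Cnnm2, a protein of magnesium transport, rose by 1.19, 1.14 and 1.15 on the log2 scale. Osbp2, an oxysterol-binding protein, was read at 19.8, 22.1, 23.5 and 21.3 RPM without and at 43.4, 56.3, 49.8 and 58.7 RPM with isoproterenol, 2.31-fold higher (SE 0.09 on the log2 scale, limma adjusted p = 3.78e-06).

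**Figure D2:**
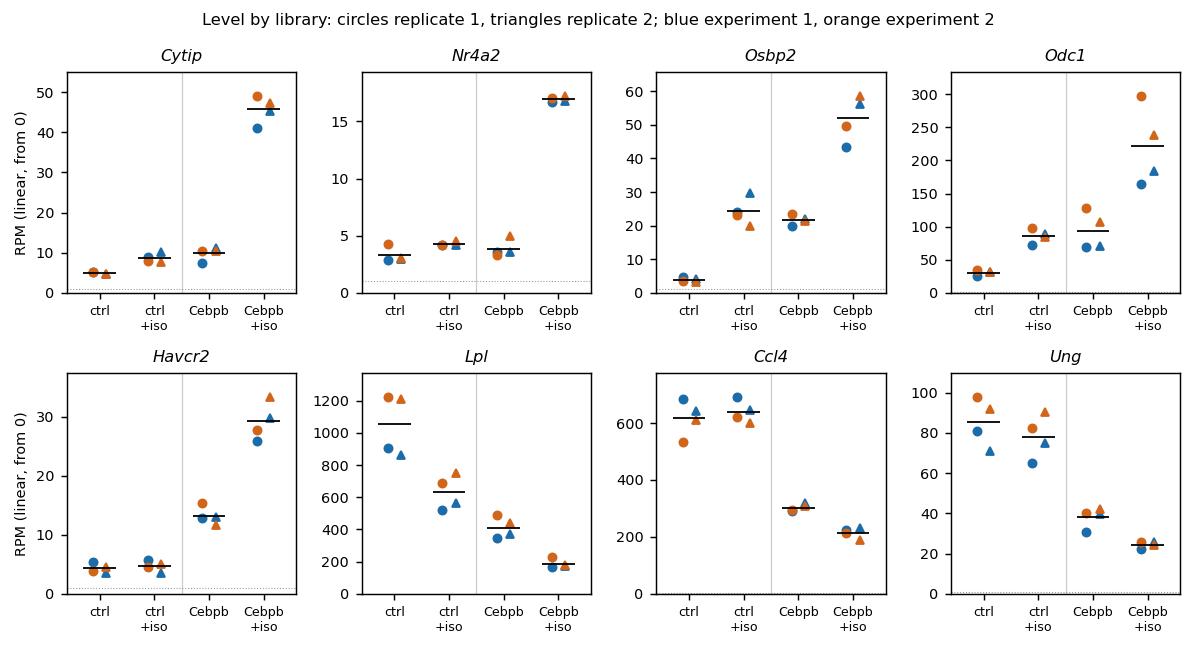
Level in RPM (linear axis from 0) of 8 genes in each of the 16 libraries, by siRNA and isoproterenol; circles and triangles are replicates 1 and 2, blue and orange experiments 1 and 2, the horizontal line is the mean of 4 libraries, the dotted line is the floor of 1 RPM and open symbols are values listed at 0. Cytip and Nr4a2 stand high only in the 4 libraries with both Cebpb siRNA and isoproterenol, and Lpl falls with isoproterenol under both siRNAs.

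Among genes with a mean of 10 RPM or more, Lpl fell most, and the other decreases at that level were smaller. Lpl, lipoprotein lipase, which releases fatty acids from lipoproteins, was read at 346, 369, 487 and 440.5 RPM without isoproterenol and at 168, 174, 231 and 176 RPM with it. No treated library reached an untreated one, and the level was 2.27-fold lower (log2 fold change -1.18, SE 0.08, limma adjusted p = 2.56e-06). Ptchd1, a membrane protein with a patched domain, was 1.96-fold lower, from 32.9 ± 5.13 to 17.6 ± 3.63 RPM. The other 12 of the 14 largest decreases at 10 RPM or more lay between -0.68 and -0.53.

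Ung, uracil DNA glycosylase, which removes uracil from DNA, was read at 30.5, 39.6, 39.96 and 42.1 RPM without and at 22.4, 25.8, 25.7 and 24.0 RPM with isoproterenol. The groups did not overlap, and the log2 fold change was -0.68 with SE 0.09 (limma adjusted p = 0.000668). Of 46 tested cell cycle genes 6 fell and 1 rose, and 39 did not pass. The median of the list was -0.25 against -0.003 over all genes, and 5 of the 46 had a change above 0. Those that fell were Ung, Mcm6 and Mcm10 of the replicative helicase machinery, Ccne1 and Ccnd1, which encode cyclins of the first gap phase, and E2f1, a factor that drives replication genes. Mcm6 went from 70.1 ± 9.19 to 50.2 ± 4.15 RPM (SD, n = 4 each; log2 fold change -0.53, limma adjusted p = 0.0022). Ccnd2, another cyclin of that phase, went the other way, from 188 ± 24.5 to 292 ± 37.0 RPM (log2 fold change 0.58, limma adjusted p = 0.0046). The number of the list's members called lower was 15 without the shallowest library, 2 without Cebpb siRNA experiment 1 replicate 2, 3 without Cebpb siRNA experiment 2 replicate 1 or either replicate 1 of the isoproterenol group, and 4 without either replicate 2 of that group. No mitotic gene of the list was called. Plk1 changed by -0.14, Top2a by -0.15 and Mki67, 1 of the 5 above 0, by 0.20. In control siRNA cells 17 members of the list fell and 0 rose, with a median of -0.17. Over all tested genes 0.836% were called lower here and 1.77% in control siRNA cells.

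Hist1h1b, a linker histone, fell from 28.7 ± 2.38 to 18.9 ± 2.56 RPM, although reads of histone genes of 1 cluster can be hard to assign to a single member. Dot1l, a histone methyltransferase, Plk2, a polo-like kinase, St3gal6, a sialyltransferase, and Clec12a, an inhibitory lectin receptor, fell by 0.61, 0.62, 0.59 and 0.57 on the log2 scale. For Plk2 and Clec12a the groups overlapped across experiments but not within them. Shmt1 of one-carbon metabolism, Slc40a1, the iron exporter ferroportin, Smad1 of BMP signalling, Mcm9, a helicase, and Ccne1 were called with all 8 libraries, at -0.59, -0.59, -0.56, -0.54 and -0.53. Each of these 5 calls was lost when at least 3 of the 8 libraries were left out in turn, with changes from -0.69 to -0.46 in all such fits.

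Inflammatory genes moved in both directions. Of 20 tested M1 activation genes 2 rose, Il1b and Cd86, and 3 fell, Tnf, Ccl4 and Gpr84, with a median of -0.01. Ccl4, a chemokine also called MIP-1β, was read at 290, 320, 292 and 310 RPM without isoproterenol and at 223, 232, 215 and 189 RPM with it. All treated libraries were the lower ones, and the log2 fold change was -0.55 with SE 0.07 (limma adjusted p = 0.000481). Tnf went from 49.3 ± 2.79 to 40.03 ± 3.66 RPM (SD, n = 4 each; log2 fold change -0.35, limma adjusted p = 0.027), a call that held in 3 of the 8 fits without 1 library. Il1b, interleukin 1β, was low, at 1.80 to 2.16 RPM without and 3.58 to 6.27 RPM with isoproterenol (log2 fold change 1.14, limma adjusted p = 0.0046). Il1r2, the decoy receptor of interleukin 1, went from 5.36, 7.44, 3.06 and 1.17 RPM to 13.6, 17.1, 9.68 and 12.2 RPM (log2 fold change 1.85, SE 0.29, limma adjusted p = 0.0036). The number of members called lower was 1 without each of Cebpb siRNA experiment 1 replicate 1, experiment 1 replicate 2 and experiment 2 replicate 1 or isoproterenol experiment 1 replicate 1, and without the shallowest library 4 members were called higher and 5 lower. In control siRNA cells 8 M1 genes rose and 0 fell, with a median of 0.14. Over all tested genes 1.71% rose and 0.836% fell here, and 2.33% and 1.77% in control siRNA cells. Il6 and Nos2 were listed at 0 in all 16 libraries.

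Of 14 tested M2 activation genes 3 rose and 1 fell. Klf4 and Clec10a, a lectin receptor, were 1.71-fold and 1.39-fold higher, and Ccl22, a chemokine, went from 1.13 to 2.12 RPM up to 2.70 to 4.21 RPM. Clec7a, the β-glucan receptor dectin-1, fell 1.98-fold from 8.28 ± 1.10 to 4.41 ± 1.14 RPM (SD, n = 4 each; limma adjusted p = 0.0013). Arg1, Il10, Chil3 and Vegfa were listed at 0 in all 16 libraries, and Mrc1 was above the floor in 2 control siRNA libraries, so none of these 5 could be compared here. In control siRNA cells 4 M2 genes rose and 1 fell. Over all tested genes 1.71% rose and 0.836% fell here, and 2.33% and 1.77% in control siRNA cells.

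Of 23 tested macrophage identity genes 5 rose, among them Csf2rb, Emilin2, Maf and Itgam by 0.35 to 0.64 on the log2 scale, while Spi1 and Csf1r had changes of 0.01 and 0.10 and did not pass. Csf2rb has a near copy, Csf2rb2, and the reads of the pair may not be separable. Of 41 lysosome and phagocytosis genes 4 rose, the Fc receptors Fcgr3 and Fcgr4, Cd93 and Itgam, and 1 fell, Clec7a. The identity list had 2 or 3 raised members without Cebpb siRNA experiment 1 replicate 2 or experiment 2 replicate 1, or without any isoproterenol library except experiment 1 replicate 1. The lysosome list had 2 raised members in the same fits apart from the first, and 2 lowered ones without the shallowest library or isoproterenol experiment 1 replicate 1. Lipid genes split, with Abca1, the cholesterol exporter, at 2.03-fold and Osbp2 at 2.31-fold higher, and Lpl and the lysosomal lipase Lipa at 2.27-fold and 1.31-fold lower, while 23 of 27 did not pass. Abca1 was read at 8.23 and 10.98 RPM in experiment 1 and 17.4 and 21.4 RPM in experiment 2 without isoproterenol, against 26.2, 20.9, 38.7 and 31.0 RPM with it, so the groups overlapped across experiments but not within either. In control siRNA cells 7 identity genes rose and 0 fell. The lysosome list there had 10 raised and 1 lowered, and the lipid list 3 and 2. Over all tested genes 1.71% rose and 0.836% fell here, and 2.33% and 1.77% in control siRNA cells.

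The counts in the other lists stand beside 1.71% called higher and 0.836% called lower over all tested genes, and the lists are short. Of 24 tested NF-κB targets 3 rose, Ier3, Cd83 and Nfkbie, and 1 did without Cebpb siRNA experiment 2 replicate 1 or either isoproterenol library of experiment 2. Hilpda and Ddit4 rose among 32 glycolysis and hypoxia genes, Dusp5 among 12 MAPK feedback genes, Il1b and Il1r2 among 10 genes of the interleukin 1 family and Msmo1 among 22 of cholesterol synthesis, and Mthfd2 fell among 24 ATF4 response genes. In the lists of type I interferon response (38 tested), oxidative phosphorylation (28), antigen presentation (18), osteoclast differentiation (8) and C/EBP family members (6) limma called 0 genes, where the share over all genes comes to under 1 raised gene in each list. Of 37 markers of T and NK, B, neutrophil and dendritic cells and the 15 of fibroblasts and epithelium, 4 could be tested, and Ighm fell from 9.89 ± 1.03 to 6.37 ± 1.28 RPM, while the other 7 B cell markers, Cd79a among them, were at 0 in all 8 libraries.

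**Figure D3:**
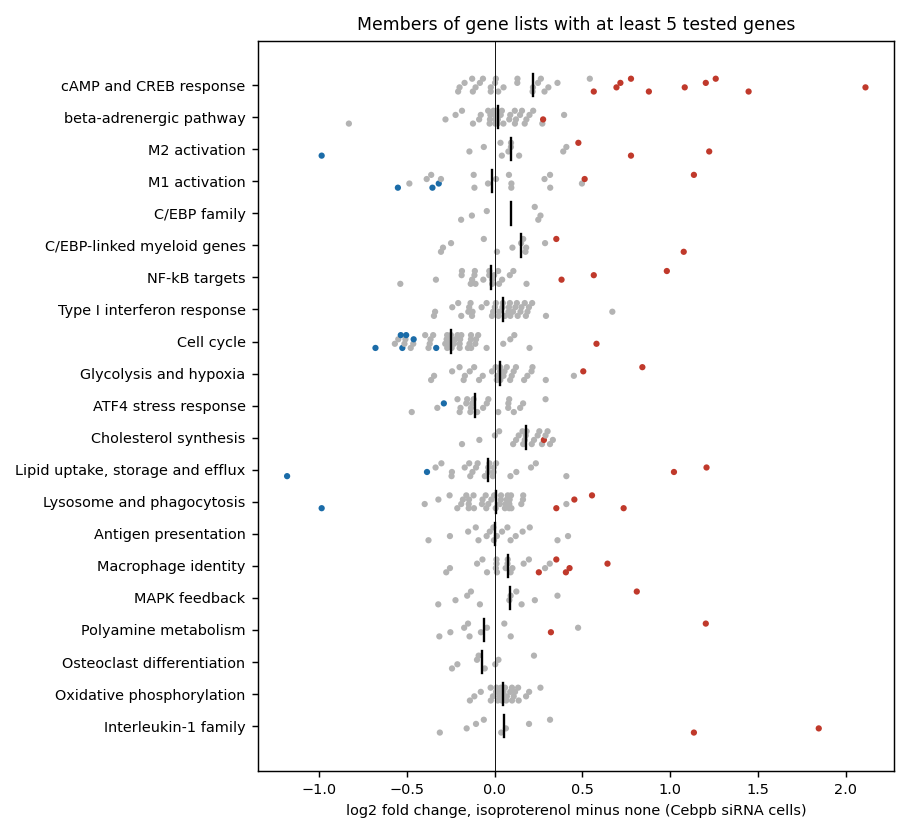
Log2 fold change by isoproterenol in Cebpb siRNA cells for the tested members of each gene list with at least 5 tested genes; red points are members called higher, blue points members called lower, grey points did not pass, and black bars are list medians. The cAMP and CREB response list has a median of 0.22 with 10 called members and the cell cycle list a median of -0.25 with 6 called lower.

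The same comparison in control siRNA cells, made on the same 10760 genes in the other 8 libraries, called 251 genes higher (2.33%) and 190 lower (1.77%), and 300 and 102 on the values as deposited. With any 1 of its 8 libraries left out the counts lay between 145 and 193 higher and between 74 and 127 lower. The 2 comparisons share no library. Of the 184 genes raised under Cebpb siRNA, 83 were also raised under control siRNA (45.1% of the one list and 33.1% of the other), and of the 90 lowered genes 38 were also lowered (42.2% of the one list and 38 of 190 of the other). No gene was called in opposite directions. Of the 184, 172 had a change above 0 in control siRNA cells, with a median there of 0.26, and of the 90, 83 had one below 0, with a median of -0.22. A call in one siRNA group and not in the other does not show a difference, which was tested in all 16 libraries together.

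That test called 27 genes, 14 with a more positive effect under Cebpb siRNA (0.13% of the genes tested) and 13 with a more negative one (0.121%). On the values as deposited these counts were 13 and 8, and without any 1 of the 16 libraries they were 10 to 15 and 7 to 16. At an unadjusted p below 0.05 there were 685. Genes were admitted by their level in the 8 Cebpb siRNA libraries only. Those at the floor under control siRNA could enter, and those at the floor under Cebpb siRNA could not. This filter favours more positive differences. With only genes above the floor in all 16 libraries the counts were 4 and 13. All 14 with a more positive effect were among the 184 raised genes, and 1 of the 13, Osbp2, was as well. Of the other 12, 4 were among the lowered genes, Ccl4, Ung, Cdr2 and Gpr84, and 8 were called in neither direction under Cebpb siRNA. The calls of Eno3, Havcr2, Ung, Ccl22, Il1r2, Acod1, Cebpd, Clec4e, Cdr2 and Gpr84 were lost in at least 1 fit without 1 of the 16 libraries, and the other 17 held in all 16 such fits.

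**Figure D4:**
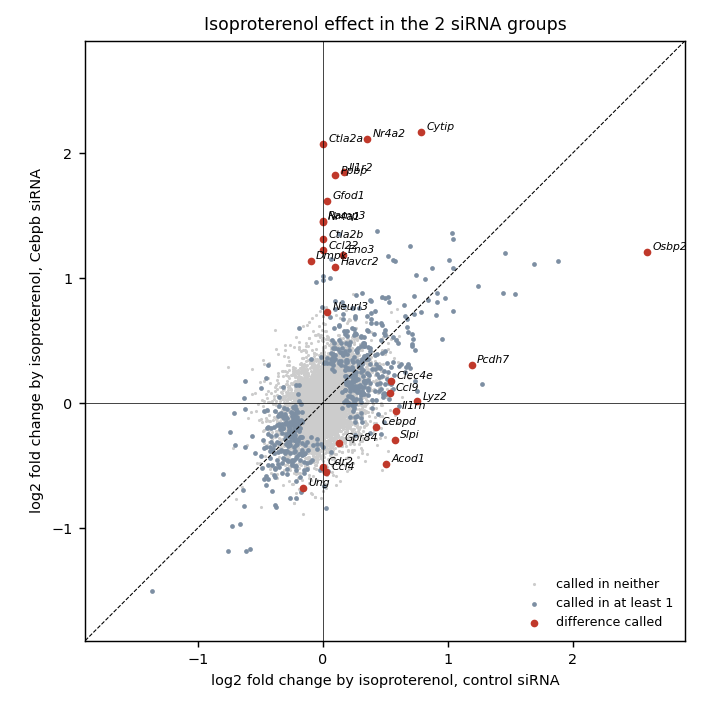
Log2 fold change by isoproterenol in control siRNA cells (horizontal) against Cebpb siRNA cells (vertical) for all tested genes, with the 27 genes whose difference was called in red and the dashed line marking equal effects. Nr4a2 lies at 0.36 on the horizontal and 2.11 on the vertical axis. Ctla2a lies at 0.004 and 2.08, but values at the floor under both siRNAs enter these, so they do not measure size. Lyz2 and Il1rn lie the other way, near 0 on the vertical axis.

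Of the 14 genes with a more positive effect, Cytip and Nr4a2 had the lowest adjusted p among those above the floor in all 16 libraries. Cytip was read at 4.61 to 5.26 RPM in control siRNA cells and at 7.69 to 10.1 RPM with isoproterenol, an effect of 0.79 against 2.17 under Cebpb siRNA (difference 1.39, SE 0.16, limma adjusted p = 7.50e-05). Nr4a2 was read at 2.89 to 4.27 RPM in control siRNA cells and at 4.14 to 4.54 RPM with isoproterenol (difference 1.75, SE 0.20, limma adjusted p = 4.61e-05). Control cells with isoproterenol thus stayed below Cebpb siRNA cells with it by a wide margin for both genes. Havcr2 was read at 3.42 to 5.35 RPM and 3.44 to 5.64 RPM in control siRNA cells, and its difference was 0.99 (SE 0.21, limma adjusted p = 0.042). Neurl3 was at 9.07 to 12.1 RPM and 10.2 to 11.1 RPM there, against 27.7 to 31.7 RPM and 45.5 to 61.9 RPM under Cebpb siRNA (difference 0.69, limma adjusted p = 0.012). Eno3 was at 7.73 to 11.6 RPM and 8.71 to 12.6 RPM there (difference 1.03, limma adjusted p = 0.049).

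Most others of this group were at or near the floor in control siRNA cells, where a fold change has no measure. Ramp3, which modifies receptors of the calcitonin family, was listed at 0 in the 12 libraries of the other groups and at 2.41, 3.93, 2.95 and 2.59 RPM with both Cebpb siRNA and isoproterenol. Ccl22, Nr4a1 and Ctla2b were also listed at 0 throughout the 8 control siRNA libraries. Ctla2a, a relative of cysteine protease propeptides, was at 1.60, 1.90, 0 and 0 RPM without and 5.67 to 5.96 RPM with isoproterenol under Cebpb siRNA, but Ctla2a and Ctla2b are near copies and may share reads. Ppbp, a platelet-type chemokine, reached 3.65 to 5.84 RPM and Gfod1 5.11 to 7.29 RPM with both, against at most 1.29 and 1.16 RPM in control siRNA libraries. Dmpk was above the floor in 2 of 8 control siRNA libraries, and in all 8 Cebpb siRNA libraries. With the fit on log2(RPM + 1) in place of the floor, 5 of the genes with a more positive difference were called and 14 with a more negative one, and with only genes above the floor in all 16 libraries 4 and 13.

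The genes with a smaller or more negative effect under Cebpb siRNA included several that rose in control siRNA cells and changed little here. Lyz2, lysozyme of macrophages, was read at 536, 515, 743 and 830 RPM in control siRNA cells and at 979, 1062, 1169 and 1229 RPM with isoproterenol. Under Cebpb siRNA it was read at 602, 605, 684 and 639 RPM without and at 587, 603, 719 and 746 RPM with isoproterenol. The control groups were fully apart and the Cebpb siRNA groups overlapped, with effects of 0.75 and 0.01 (difference -0.74, SE 0.09, limma adjusted p = 8.50e-05). Il1rn, the antagonist of the interleukin 1 receptor, went from 111 to 169 RPM on average in control siRNA cells and was at 513 ± 179 and 516 ± 210 RPM under Cebpb siRNA (difference -0.65, limma adjusted p = 0.0029). Its level was thus higher under Cebpb siRNA in both conditions, with experiment 2 above experiment 1 in every group.

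Slpi, an inhibitor of leukocyte proteases, rose from 62.0 to 94.6 RPM in control siRNA cells and was at 26.4 ± 6.03 and 22.1 ± 3.44 RPM under Cebpb siRNA (difference -0.87, limma adjusted p = 0.000486). Cebpd, which encodes another C/EBP family member, rose from 11.5 to 15.8 RPM in control siRNA cells and was at 19.8 ± 3.33 and 17.9 ± 2.82 RPM under Cebpb siRNA (difference -0.62, limma adjusted p = 0.035). Acod1, which makes itaconate, rose from 14.8 to 21.1 RPM in control siRNA cells and was at 7.28 ± 4.10 and 5.23 ± 2.63 RPM under Cebpb siRNA (difference -0.99). Pcdh7, a protocadherin, rose in control siRNA cells by 1.19 on the log2 scale, and its change of 0.31 under Cebpb siRNA did not pass (difference -0.89). Ccl9, a chemokine, and Clec4e, the receptor Mincle, rose by 0.54 and 0.55 in control siRNA cells and had changes of 0.08 and 0.18 under Cebpb siRNA, with differences of -0.46 and -0.38. Of 13 tested genes on the list of C/EBP-linked myeloid genes 2 rose under Cebpb siRNA, Itgam and Trem1, and 10 rose under control siRNA, with medians of 0.15 and 0.55. The 2 became 5 without the shallowest library, and 1 without Cebpb siRNA experiment 1 replicate 2 or experiment 2 replicate 1, or any isoproterenol library except experiment 1 replicate 1. Over all tested genes 1.71% were called higher under Cebpb siRNA and 2.33% under control siRNA. A call in 1 group only does not show a difference, and the list was written with earlier results of these data known. The difference itself was called for Lyz2, Il1rn, Slpi and Clec4e of this list.

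**Figure D5:**
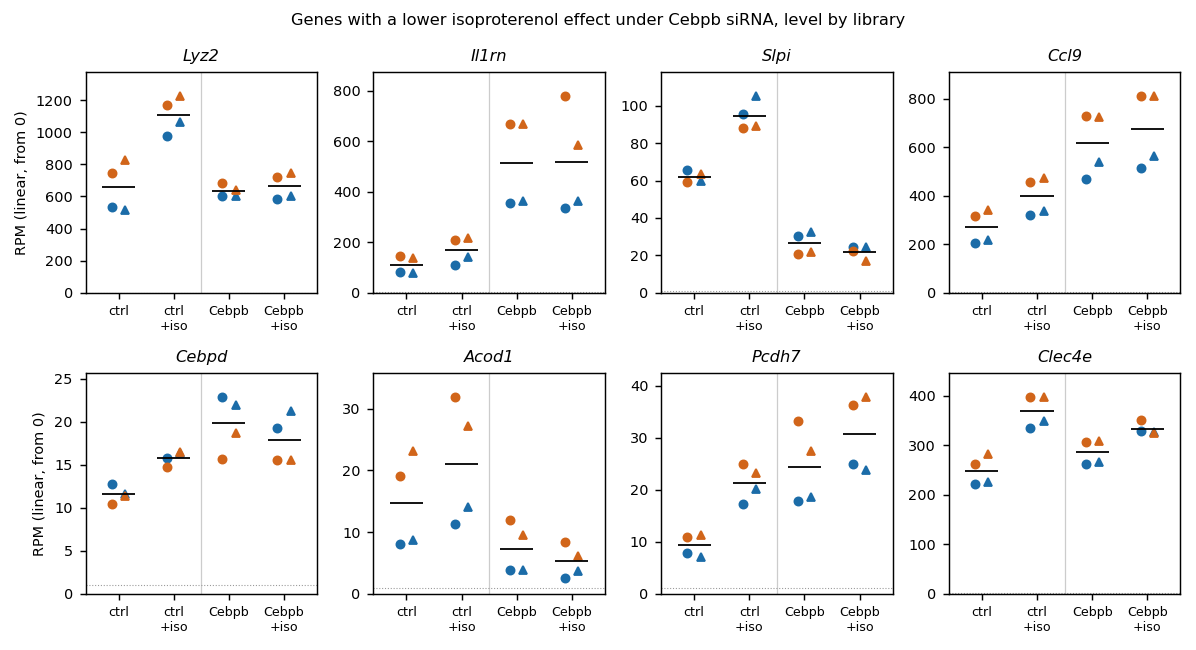
Level in RPM (linear axis from 0) of 8 of the 13 genes with a more negative isoproterenol effect under Cebpb siRNA, in each of the 16 libraries; symbols, lines and colours as in the plot of single genes by library. Lyz2 rises from 515 to 830 RPM up to 979 to 1229 RPM in control siRNA cells and stays between 587 and 746 RPM under Cebpb siRNA.

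Osbp2 had a smaller effect under Cebpb siRNA but not a lower level. It was read at 3.31 to 4.72 RPM in control siRNA cells and at 19.9 to 29.7 RPM with isoproterenol, an effect of 2.60 against 1.21 under Cebpb siRNA (difference -1.39, SE 0.17, limma adjusted p = 8.50e-05). The level under Cebpb siRNA was higher in both conditions, and its untreated libraries, at 19.8 to 23.5 RPM, overlapped the treated control siRNA libraries. Ccl4 was at 533 to 685 RPM and 601 to 693 RPM in control siRNA cells, with no call there, and its difference was -0.58 (SE 0.09, limma adjusted p = 0.0024). Ung was at 71.1 to 98.2 RPM and 64.8 to 90.3 RPM in control siRNA cells, with a difference of -0.52 (limma adjusted p = 0.036). For Odc1, Crem, Fosl2, Trem1, Cnnm2 and Abca1 the effects were 1.46, 0.87, 0.66, 1.04, 1.01 and 0.75 in control siRNA cells and 1.20, 1.08, 0.69, 1.08, 1.15 and 1.02 under Cebpb siRNA, and no difference was called, which does not show that they were equal. For Lpl the effect was -0.76 in control siRNA cells, and the difference of -0.42 missed the threshold (limma adjusted p = 0.061).

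Treated libraries listed more genes above the floor than untreated ones, 10719 to 10821 against 10583 to 10713, and the groups did not overlap (exact two-sided permutation p = 0.0286, adjusted p = 0.124 over 13 library measures). Its part in the counts that follow was not tested. There were 11 genes above it in all 4 libraries with isoproterenol and in none of the 4 without, and 4 genes the other way. Each entered the test only through the group above the floor, and the values of the other group were set to the floor. A call among these genes is therefore no independent support. Ramp3 was the only one of those named here that limma called, and Cd80, a costimulatory ligand listed at 0 in the other 12 libraries, was read at 1.39, 1.33, 1.40 and 1.96 RPM (limma adjusted p = 0.21). Rfx3, Bank1, Pdk2 and Zfp526, at 1.02 to 2.19 RPM in treated libraries, and Ttc8 and Pik3ip1, at 1.03 to 1.65 RPM in untreated ones, did not pass either. At the depth of these libraries the floor is 9 to 25 reads, so a level listed at 0 may still be up to that many reads.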

How the data were processed

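RNA of RAW 264.7 cells was made into libraries of 3′ ends with Lexogen QuantSeq 3' FWD, per the labels' protocols. Reads were aligned to GRCm38 with STAR 2.5.3a, per the submitters' processing notes. How reads were counted, and whether by strand, is not given in the sources used, so antisense and overlapping genes may share reads. The deposited values are log2 of reads per 1000000 of all reads (RPM), and anything not above 1 RPM is listed as 0, as the values show. Whole reads came back from 100% of the listed values within 0.1 read, and the totals quoted are these.

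From these values, genes above the floor in at least 4 of the 8 Cebpb siRNA libraries were tested with limma 3.58.1 in R 4.3.3 (lmFit, eBayes with trend and robust estimation). Values below the highest floor of the libraries compared were set to it. Scaling between libraries used the mean log ratio after trimming (30% on the ratio and 5% on the level). The terms were group and experiment, and p-values were adjusted by Benjamini-Hochberg over all tested genes. Printed RPM are as deposited, and fold changes are fitted. The difference of effects was fitted in all 16 libraries on the same genes. The steps were tested on simulated data with the same spread setting for every gene and no difference between experiments. That test therefore does not cover these features of the libraries. Alternatives were another scaling or none, other filters, log2(RPM + 1), no experiment term, a replicate block, each experiment alone and each library left out.

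Named genes are the 14 largest increases and 14 largest decreases with a mean of at least 10 RPM, up to 4 members per list, genes crossing the floor, up to 8 differences per direction at 10 RPM or more, and 16 genes chosen with earlier results in view. Provisional gene models and pseudogenes were left out of the ranking. Ccl9, Ppbp, Clec4e, Cdr2, Ctla2a, Ctla2b, Gfod1 and Gpr84, list members beyond 4 and the genes under other observations were chosen after their values were seen. The comparison and the 27 lists were chosen with earlier results of these data known. Symbols were matched to GENCODE release 21 for the mouse (94.3% of names). Replicates of a group differed by more than sampling noise, with chi-square per degree of freedom of 4.92 to 13.3, so each library counted as 1. Values of some single genes are not reported here.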

Additional observations from a re-analysis of the deposited data

Results flagged for a closer look

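In 6 of 178 groups of 4 libraries, 1 library lay far from the other 3, with a gap beyond the 95% critical value of Dixon's test, which chance gives in about 1 group in 20. The gaps were 0.853 of the range for Nr4a2 without isoproterenol (4.99 RPM against 3.30 to 3.54 RPM) and, with isoproterenol, 0.834 for Gpc1 (46.8 RPM against 59.9 to 62.5 RPM), 0.869 for Lpl (231 RPM against 168 to 176 RPM), 0.870 for Cd86 (40.8 RPM against 49.6 to 50.9 RPM), 0.886 for Cd80 (1.96 RPM against 1.33 to 1.40 RPM) and 0.889 for Clec4e (352 RPM against 325 to 328 RPM).

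For 27 genes the isoproterenol effect under Cebpb siRNA differed from that under control siRNA in the test of the difference itself (limma adjusted p below 0.05). The differences, on the log2 scale, were 2.07 for Ctla2a, 1.756 for Ppbp, 1.755 for Nr4a2, 1.71 for Il1r2, 1.6 for Gfod1, 1.443 for Ramp3, 1.433 for Nr4a1, 1.387 for Cytip, 1.303 for Ctla2b, 1.222 for Dmpk, 1.217 for Ccl22, 1.027 for Eno3, 0.9941 for Havcr2 and 0.6934 for Neurl3. In the other direction they were -1.389 for Osbp2, -0.995 for Acod1, -0.8868 for Pcdh7, -0.8721 for Slpi, -0.7416 for Lyz2, -0.6514 for Il1rn, -0.6219 for Cebpd, -0.5799 for Ccl4, -0.5204 for Ung, -0.5121 for Cdr2, -0.4603 for Ccl9, -0.4475 for Gpr84 and -0.375 for Clec4e. Values of Nr4a1, Ramp3, Ccl22, Ctla2a, Ctla2b, Ppbp, Gfod1, Dmpk and Il1r2 rest on control siRNA libraries of which some or all are at the floor.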

How the results depend on the processing

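No gene among the 274 called changed sign under any alternative run, but each run used libraries from which the calls were made. Counts of genes higher and lower in Cebpb siRNA cells (184 and 90) became 48 lower on values as deposited, 68 and 19 without the experiment term, 103 and 45 without trend and robust estimation, 33 and 3 with experiment 2 by itself, and 318 and 295 with all 16 libraries in one fit. Without 1 library they ran from 100 to 336 higher and from 35 to 231 lower. The replicate block gave 97 and 37, all 134 among the 274. Deviations of libraries with the same number correlated at -0.52 to -0.06. Taking out the group and experiment terms by itself pulls such correlations below 0. These values therefore cannot tell whether the numbers pair libraries.

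In control siRNA cells (251 and 190) the counts were 102 lower as deposited, 39 and 7 without the experiment term, 104 and 44 without trend and robust estimation, 28 and 4 when experiment 1 was used alone, 4 and 1 for experiment 2, 127 and 47 with all 16 libraries, and 145 to 193 higher and 74 to 127 lower without 1 library. The difference (14 and 13) gave 8 more negative as deposited, 4 more positive with genes above the floor in all 16 libraries, 5 with log2(RPM + 1), 9 and 1 without the experiment term, 3 more positive when experiment 1 was fitted by itself, 2 and 1 for experiment 2 by itself, 15 and 14 with the replicate block, and 10 to 15 and 7 to 16 without 1 library. The causes were not tested.

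The effect on Cebpb, not called, reversed to -0.18 in experiment 2 alone, and ran from -0.03499 (without Cebpb siRNA experiment 1 replicate 1) to 0.464 without 1 library. Of the 14 largest increases 12 were called under every alternative, Prdm1 and Dmpk excepted, and of the 14 largest decreases Lpl and Ung were. Of 2117 values of named genes under alternatives 1724 kept direction and call. Mitochondrial mRNA was higher by 1005 RPM in experiment 1 and 1469 RPM in experiment 2. Depth limits genes near 1 RPM. The alternatives for control siRNA cells, the counts in lists and the test of effects between experiments were added after the data were seen.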

Other observations

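Several gene families outside the lists held more than 1 raised member, named here after their values were seen. All 3 chains of complement component C1q rose with isoproterenol in Cebpb siRNA cells. C1qa was at 80.6 to 149 RPM without and 175 to 217 RPM with isoproterenol (log2 fold change 0.64, limma adjusted p = 0.020), C1qb at 78.6 to 104 RPM and 117 to 146 RPM (0.46, limma adjusted p = 0.014) and C1qc at 93.0 to 136 RPM and 123 to 178 RPM (0.33, limma adjusted p = 0.012). The chains C1qa and C1qb did not overlap between conditions, and those of C1qc did. All 3 rose in control siRNA cells too, by 0.43, 0.31 and 0.20. The lectin receptors Clec4a1, Clec4a2 and Clec4a3 rose by 0.53, 0.81 and 0.47, and the receptors Cd300lb, Cd300ld and Cd300lg by 0.39, 0.74 and 0.76, although relatives within each family are alike in sequence. Pf4, a chemokine of platelets and macrophages, rose from 328 to 398 RPM up to 499 to 607 RPM (limma adjusted p = 0.00085).

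Among genes under 10 RPM, Thbd, thrombomodulin, rose from 4.49 to 5.69 RPM up to 11.4 to 16.1 RPM (log2 fold change 1.36, limma adjusted p = 0.00012), and Efr3b fell from 3.58 to 5.14 RPM down to 1.42 to 1.82 RPM (log2 fold change -1.51), the largest called decrease of any level. Thbd changed by 1.03 and Efr3b by -1.37 in control siRNA cells.

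Further lowered genes act in chromatin replication. Hells, a remodelling enzyme, went from 76.4 to 96.6 RPM down to 61.7 to 71.6 RPM, Pclaf, a partner of the replication clamp, from 52.1 to 60.6 RPM down to 34.2 to 46.2 RPM, and Dut, which removes dUTP, from 40.04 to 48.3 RPM down to 28.7 to 37.1 RPM. Uhrf1, a reader of methylated DNA, fell by 0.44 on the log2 scale (limma adjusted p = 0.043). In control siRNA cells Pclaf and Dut fell by 0.25 and 0.22, while the changes of Hells (-0.09) and Uhrf1 (-0.21) did not pass.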
